A study of Mus musculus with 6 samples.

Results

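The receptor tyrosine kinases MET and RON, the TAM receptors (TYRO3, AXL and MERTK) and their ligands were described through 8 genes, chosen by symbol: Met, Mst1r, Axl, Mertk, Tyro3, Hgf, Gas6 and Pros1. All 8 were found among the 24214 features of the count tables. The measurements were made in the 393P cell line, an epithelial line of murine lung adenocarcinoma (LUAD), labelled as KP lung cancer cells of strain C57BL/6. One group of 3 samples carried an empty vector (393P_vector) and the other group of 3 carried an expression vector for ZEB1 (393P_ZEB1), a zinc-finger repressor that drives epithelial-to-mesenchymal transition (EMT). The transfectants were grown in RPMI-1640 with serum, and the study's methods describe stable transfectants selected with puromycin or G418. Total RNA was sequenced on the SOLiD platform. The labels do not say whether the 3 samples of a group came from separate transfections or cultures, so every p-value measures only the spread between these samples, which may be technical.

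MET is the receptor of hepatocyte growth factor (HGF), and RON, encoded by Mst1r, is its close relative and the receptor of macrophage-stimulating protein, encoded by Mst1. Both ligands are secreted as inactive precursors that serine proteases cut into active form. Ligand binding leads to receptor phosphorylation, recruitment of adaptors such as GAB1, and signalling through the MAPK, PI3K and STAT3 pathways. Active MET is ubiquitinated by CBL and sorted in endosomes for recycling or for degradation in lysosomes. The TAM receptors bind the vitamin K-dependent proteins GAS6 and protein S (Pros1), which also bind phosphatidylserine on dying cells. AXL binds GAS6, whereas TYRO3 and MERTK bind both proteins. AXL and MET are well known in carcinoma cells for roles in motility, EMT and drug resistance.

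Total counts ranged from 54442450 to 79158012 per sample, and levels are given as CPM, the count scaled to the normalized library size. Detection was set at a count of 3, equal to 0.0361 CPM in the deepest sample and 0.0561 CPM in the shallowest. The groups were compared in edgeR with a quasi-likelihood fit to the 13892 genes that passed its filter on low counts, with Benjamini-Hochberg adjustment over all of them and a threshold of 0.05. Zeb1 itself rose from 21.5 ± 0.435 to 51.7 ± 3.01 CPM (SD, n = 3 each), a log2 fold change of 1.26. It lies on chromosome 18, where the median log2 fold change of all tested genes was 0.64. The part of the chromosome in the rise was not tested. Of 7 epithelial markers 6 were lower in 393P_ZEB1 cells, and 6 of 6 mesenchymal markers were higher. Zeb1, whose rise was set by the design, is among these 6. Of all tested genes 18.3% were higher and 19.3% lower. The lung epithelial markers Nkx2-1, Sftpb, Sftpc and Scgb1a1 summed to at most 0.144 CPM in any sample, with Scgb1a1 at 0, so differentiated lung epithelium was not visible by these genes. 393P_vector replicate 3 stood apart from the other samples: 4.996% and 5.51% of tested genes differed at least 2-fold between it and replicates 1 and 2, against 0.0648% to 0.18% for the other pairs within a group.

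Of the 8 genes, 6 passed the filter and were tested: the ligand genes Gas6 and Pros1 were higher in 393P_ZEB1 cells, Met was lower, and Axl, Mertk and Tyro3 did not pass the threshold. Mst1r and Hgf had too few counts to be tested. Over all tested genes 37.6% passed the threshold, with 18.3% higher and 19.3% lower, and the 3 of 6 genes called here are to be read against that share. In the 6 tested genes the groups did not overlap for Gas6, Pros1, Mertk and Tyro3, with 393P_ZEB1 above, and for Met, with 393P_ZEB1 below. Across all tested genes such separation was seen for 26.3% in the first direction and 26.5% in the other.

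**Figure D1:**
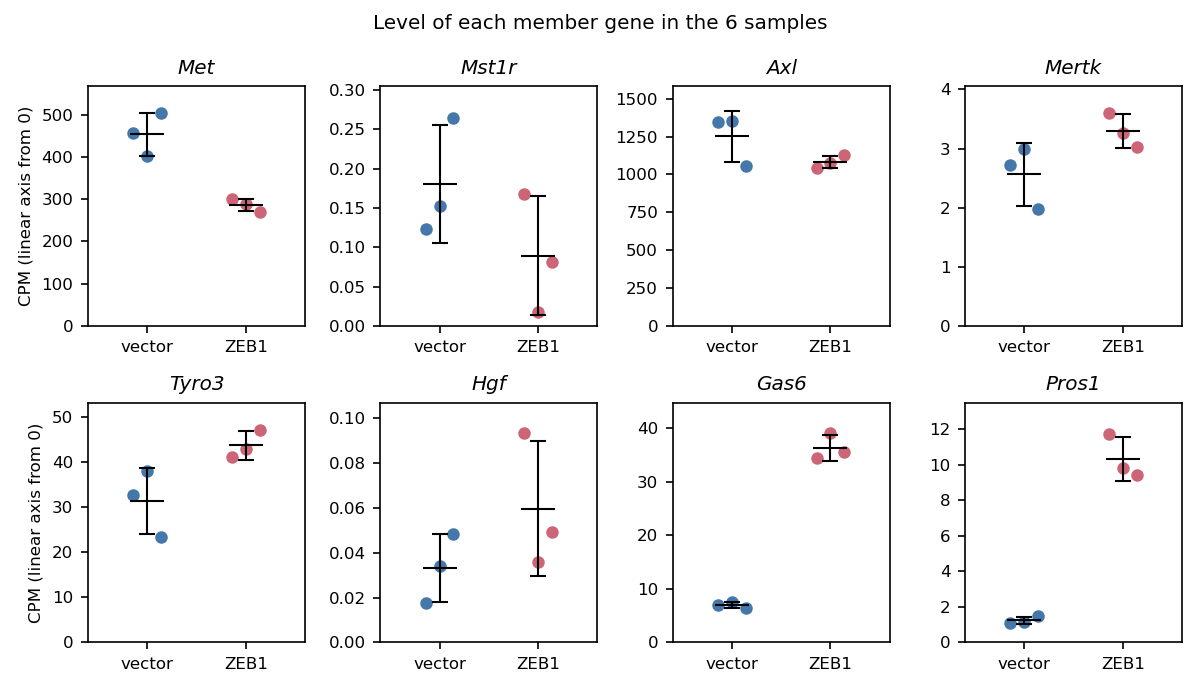
Level of each of the 8 genes in CPM (y axis, linear, from 0) in the 393P_vector and 393P_ZEB1 samples (x axis). Points are samples 1 to 3 from left to right, horizontal bars are means and error bars are SDs (n = 3 each). Met is lower in all 393P_ZEB1 samples, Gas6 and Pros1 are higher in all of them, and Mst1r and Hgf stay below 0.3 CPM in every sample.

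The Met gene (chromosome 6, 17463957 to 17573980 on GRCm38, plus strand, 22 exons) is shown first. Met was at 457, 402 and 503 CPM in 393P_vector replicates 1 to 3 and at 299.6, 289 and 269.9 CPM in 393P_ZEB1 replicates 1 to 3. Every 393P_ZEB1 sample was thus below every 393P_vector sample. The log2 fold change was -0.67 (SE 0.12, 95% interval -0.94 to -0.39, adjusted p = 0.00331 from edgeR), a level 1.59-fold lower. The change was not shown to exceed 1.5-fold (adjusted p = 0.388 when tested against that size). All 22 exons carried more than 10 reads in every sample, so the transcript was covered along its length in both groups. Other genes of chromosome 6 also tended to be lower: the median log2 fold change of the other 669 tested there was -0.36, against -0.02 over all tested genes. Met lay 0.31 below that chromosome's median, at position 511 of 670 from the top, and the part of the chromosome in the difference was not tested.

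Mst1r, the RON gene (chromosome 9, 107906889 to 107920383), was barely detected. It had 7, 9 and 22 counts in 393P_vector replicates 1 to 3 and 9, 1 and 5 counts in 393P_ZEB1 replicates 1 to 3, or 0.180 ± 0.0745 and 0.0894 ± 0.0754 CPM (SD, n = 3 each). The groups overlapped, and 1 count in 393P_ZEB1 replicate 2 was under the detection level. With no filter on low counts, edgeR gave a log2 fold change of -1.06 (95% interval -2.41 to 0.30, adjusted p = 0.282), so a difference was not detectable at this depth. No exon had more than 10 reads in any sample.

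Axl (chromosome 7, 25756500 to 25788733, minus strand, 20 exons) encodes the TAM receptor that binds GAS6 alone. It was at 1345, 1352 and 1054 CPM in 393P_vector replicates 1 to 3 and at 1043, 1076 and 1127 CPM in 393P_ZEB1 replicates 1 to 3. The groups overlapped because 393P_vector replicate 3 lay among the 393P_ZEB1 samples. The log2 fold change was -0.21 (95% interval -0.51 to 0.09, adjusted p = 0.238 from edgeR). Without 393P_vector replicate 3 it was -0.32 (adjusted p = 0.00663), and with limma's sample weights, which reduce the influence of outlying samples, -0.30 (adjusted p = 0.00275). Both fits called more genes of all kinds. Without 393P_vector replicate 3, 3700 genes were higher and 3776 lower, against 2539 and 2679 with all samples, and limma called 58.1% of tested genes. The direction was down in each of these fits. Whether Axl was called depended on that sample and, with all samples kept, on the test used.

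Tyro3 (chromosome 2, 119799514 to 119818103) was at 32.8, 38.01 and 23.5 CPM in 393P_vector replicates 1 to 3 and at 41.1, 42.9 and 47.3 CPM in 393P_ZEB1 replicates 1 to 3. The groups did not overlap, and 393P_vector replicate 3 was the sample farthest from the other group. The log2 fold change was 0.48 (95% interval 0.06 to 0.90, adjusted p = 0.0732 from edgeR). It passed the threshold without 393P_vector replicate 2 (0.64, adjusted p = 0.0306), without 393P_vector replicate 3 (0.30, adjusted p = 0.0279), in DESeq2 (0.48, adjusted p = 0.0454) and with limma's sample weights (0.37, adjusted p = 0.0062). Those 2 tests called more genes overall: DESeq2 41.6% of all tested genes, with 20.3% higher and 21.3% lower, and limma with sample weights 58.1%, with 28.6% higher and 29.5% lower. Against these backgrounds DESeq2 called 3 of the 6 genes higher and 1 lower, and limma 3 higher and 2 lower. The fit without 393P_vector replicate 3 also called more genes, 3700 higher and 3776 lower against 2539 and 2679 with all samples.

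Mertk (chromosome 2, 128698997 to 128802188), the TAM receptor known for the clearance of dying cells by phagocytes, was low. It was at 2.72, 2.99 and 1.97 CPM in 393P_vector replicates 1 to 3 and at 3.61, 3.26 and 3.03 CPM in 393P_ZEB1 replicates 1 to 3. The groups were separated by a narrow gap, between 2.99 and 3.03 CPM. The log2 fold change was 0.37 (95% interval -0.11 to 0.84, adjusted p = 0.196 from edgeR), and no alternative setting brought it past the threshold. More than 10 reads were found on only 2 to 5 of its 19 exons per sample. The 7 macrophage and leukocyte markers, none at 0 throughout, summed to between 2.19 and 4.48 CPM in 393P_vector samples. In 393P_ZEB1 samples they summed to between 1.57 and 1.79 CPM. Most of that sum was Cd68 (2.04 and 1.03 CPM in mean, not called) and Csf1r (0.860 and 0.241 CPM, called lower). Ptprc overlapped between the groups (0.258 and 0.198 CPM). The part of these markers in the level of Mertk was not tested. In bulk RNA, fewer cells of a type and less RNA per cell cannot be told apart.

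Gas6, the TAM ligand gene (chromosome 8, 13465374 to 13494535, minus strand), had a higher level than Pros1 in both groups. Gas6 was at 6.996, 7.51 and 6.33 CPM in 393P_vector replicates 1 to 3 and at 34.4, 39.1 and 35.5 CPM in 393P_ZEB1 replicates 1 to 3. The lowest 393P_ZEB1 sample was far above the highest 393P_vector sample. The log2 fold change was 2.39 (SE 0.13, 95% interval 2.09 to 2.69, adjusted p = 6.48e-06 from edgeR), a level 5.23-fold higher. The median of the other tested genes on chromosome 8 was -0.05, and Gas6 ranked 18 of 744 there.

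Pros1 (chromosome 16, 62854334 to 62929340), which encodes protein S, a plasma anticoagulant as well as a TAM ligand, rose from a very low level. It was at 1.095, 1.16 and 1.47 CPM in 393P_vector replicates 1 to 3 and at 11.8, 9.83 and 9.45 CPM in 393P_ZEB1 replicates 1 to 3. The groups were widely separated. The log2 fold change was 3.05 (SE 0.19, 95% interval 2.61 to 3.49, adjusted p = 1.38e-05 from edgeR), a level 8.29-fold higher. Reads covered 1 to 2 of its 15 exons at more than 10 reads in 393P_vector samples and 13 of 15 in each 393P_ZEB1 sample. The other tested genes of chromosome 16 had a median log2 fold change of 0.25, and Pros1 lay 2.81 above it, sixth from the top of 432 genes. Fibroblast markers such as Pdgfra and Col1a1 summed to 2.09 to 2.95 CPM in 393P_vector and 1.21 to 1.42 CPM in 393P_ZEB1 samples. Endothelial markers summed to 2.26 to 2.46 and 0.63 to 0.868 CPM. Most of the 393P_vector endothelial sum was Kdr, which fell from 1.91 to 0.330 CPM in mean, and Pecam1 went from 0.327 to 0.144 CPM. Tek (0.0585 to 0.149 CPM, groups not overlapping) and Cdh5 (0.0755 to 0.144 CPM, overlapping) were higher in mean but too low to be tested. The part of these cell types in the levels of Pros1 and Gas6 was not tested. Of the 5 fibroblast markers, Pdgfrb was called higher and Pdgfra lower, and Lum had at most 3 counts in every sample.

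Hgf, the MET ligand gene (chromosome 5, 16553550 to 16619439), is known as a product of mesenchymal cells that acts on neighbouring epithelium. It had 1, 2 and 4 counts in 393P_vector replicates 1 to 3 and 5, 2 and 3 counts in 393P_ZEB1 replicates 1 to 3. These counts lay at or near the detection level in both groups, so no fold change is given. Neither group therefore showed a clear Hgf transcript, while Met was among the highest receptor genes in both.

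**Figure D2:**
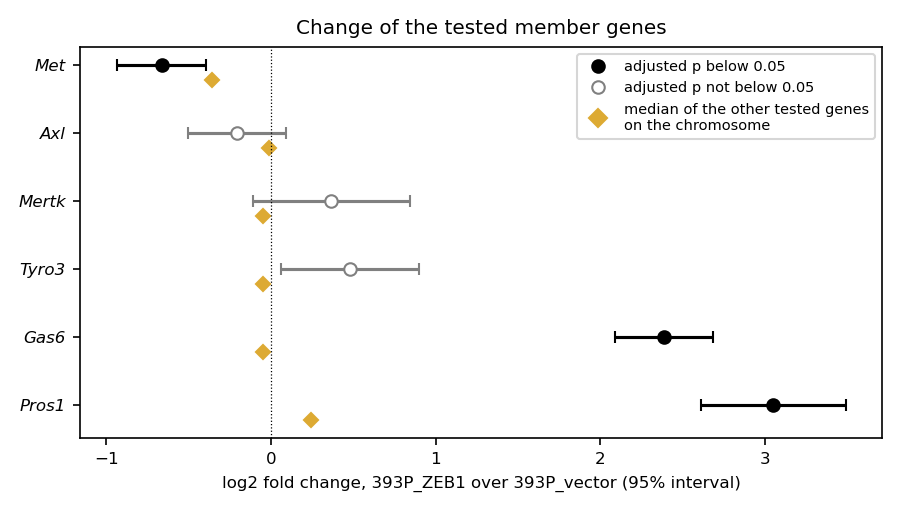
Log2 fold change of 393P_ZEB1 over 393P_vector (x axis) for the 6 tested genes (y axis), with 95% intervals from edgeR. Filled points passed the adjusted p threshold of 0.05, and diamonds are the median change of the other tested genes on the same chromosome. Gas6 and Pros1 lie far above their chromosome medians of -0.05 and 0.25, and Met lies at -0.67 with a chromosome 6 median of -0.36.

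To compare genes with each other, CPM was divided by exon length in kilobases. In 393P_vector cells the order of mean levels was Axl at 247, Met at 68.5, Tyro3 at 7.92, Gas6 at 2.69, Mertk at 0.725, Pros1 at 0.381, Mst1r at 0.0385 and Hgf at 0.0122 CPM per kilobase. No neighbours in that order overlapped over their samples. In 393P_ZEB1 cells Axl at 214 and Met at 43.2 kept the top places, and Gas6 at 14.1 stood above Tyro3 at 11.02 and Pros1 at 3.18 above Mertk at 0.933 CPM per kilobase. Hgf at 0.0218 and Mst1r at 0.0191 CPM per kilobase overlapped at the bottom. Gas6 and Pros1 had thus each passed a TAM receptor gene in the order.

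Axl made up nearly all TAM receptor transcripts. Its share of the summed CPM per kilobase of Axl, Tyro3 and Mertk was 96.6% ± 0.374 in 393P_vector and 94.7% ± 0.111 in 393P_ZEB1 cells (SD, n = 3 each), and all 393P_ZEB1 samples were below all 393P_vector samples. The share of Tyro3 was 3.07% ± 0.352 and 4.88% ± 0.158, and that of Mertk 0.282% ± 0.0225 and 0.415% ± 0.0526. Each of these 3 shares gave an exact permutation p of 0.1 (two-sided), the smallest that 3 samples against 3 allow. The receptor sum was 256 ± 35.4 and 226 ± 9.03 CPM per kilobase, with overlapping groups (exact permutation p = 0.4). The ligand sum of Gas6 and Pros1 was 3.08 ± 0.182 and 17.3 ± 0.792 CPM per kilobase, without overlap (exact permutation p = 0.1). Gas6 made up 87.5% ± 2.64 and 81.6% ± 2.51 of it.

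Ratios within a sample do not depend on library scaling. The log2 ratio of Axl to Tyro3 was 4.98 ± 0.169 in 393P_vector and 4.28 ± 0.0479 in 393P_ZEB1 cells, a difference of -0.70. The ratios of Axl to Mertk (-0.58) and of Gas6 to Pros1 (-0.67) were also lower in all 393P_ZEB1 samples. All 3 had an exact permutation p of 0.1, or 0.167 after adjustment over the 5 ratios compared, so none could reach the threshold in this design. The ratio of Mertk to Tyro3 differed by -0.12 (exact permutation p = 0.6), which was within the spread of the samples. The ratio of Met to Mst1r differed by 0.59 (exact permutation p = 0.7) and rested on single Mst1r counts, since its sign turned to -0.16 without 393P_ZEB1 replicate 2.

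Among 58 receptor tyrosine kinase genes, Axl ranked first in 393P_vector cells by CPM per kilobase and Met ranked number 3. In 393P_ZEB1 cells Axl ranked second by the mean, behind Epha2 at 219.9 CPM per kilobase, although it was first in 2 of the 3 samples. Met ranked number 4 there by the mean, behind the ephrin receptor gene Ephb4 at 47.7 CPM per kilobase, although it was number 3 in 393P_ZEB1 replicate 1. Tyro3 went from rank 16 to rank 14 and Mertk from 29 to 22, while Mst1r ranked 41 and 52 by the mean. Over replicates 1 to 3 Mst1r ranked 47, 41 and 38 in 393P_vector and 44, 58 and 51 in 393P_ZEB1 cells, on few counts.

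**Figure D3:**
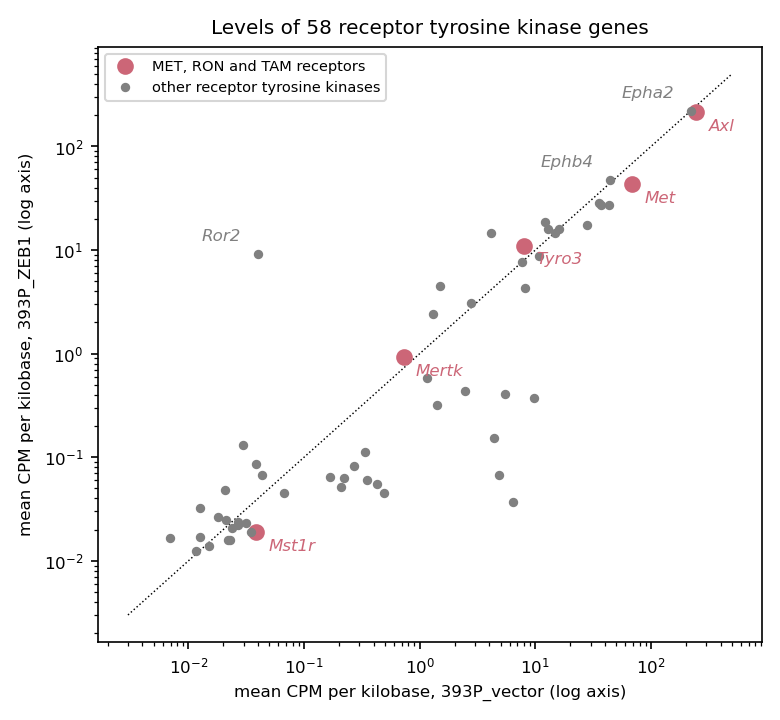
Mean level of 58 receptor tyrosine kinase genes in CPM per kilobase in 393P_vector (x axis) and 393P_ZEB1 cells (y axis), both on log axes, with the line of equal levels dotted. Large points are Met, Mst1r, Axl, Mertk and Tyro3, and small points are the other 53 receptor genes. Axl and Met sit in the upper corner close to the line, while receptor genes that fell, such as Ephb2, Ret, Epha1 and Erbb3, lie far below it.

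Of the other 53 receptor tyrosine kinase genes, 40 were tested. Of these, 8 were higher and 20 were lower, with a median log2 fold change of -0.50 against -0.02 over all tested genes, of which 18.3% were higher and 19.3% lower. Ephb2 fell by 7.41 on the log2 scale (SE 0.17, adjusted p = 3.44e-07), from 30.3 ± 1.17 to 0.176 ± 0.0129 CPM. Ret, the receptor of GDNF family ligands, had a log2 fold change of -6.18, Epha1 of -4.85 and Erbb3, a neuregulin receptor gene, of -4.69. Ror2, a receptor of the WNT5A pathway, rose from 0.158 ± 0.0315 to 36.5 ± 3.94 CPM, a log2 fold change of 7.85 (SE 0.20, adjusted p = 3.71e-07). Flt4 rose by 1.81, Ephb6 by 1.59 and Epha7 by 0.90 on the log2 scale. The adjusted p-values in this paragraph are from edgeR.

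The sequences around these genes were searched for letters known to matter in the ZEB1 network. ZEB1 binds E-boxes with the letters CACCTG or CAGGTG, and these were searched on both strands in the RefSeq promoter windows of the 8 genes (GRCm38.p6, 300 bases around each start, 10 windows in all). Only the Met window held a match, centred in the following 30 bases at chr6:17463970-17463999 (plus strand, match in capitals), 26 bases after the start.
Met promoter: cggcccgggccgCAGGTGacccggacggcc
Such a match was present in 20.2% of all 32851 windows and in 18.2% of the 12490 windows of tested genes, so 1 of 10 was no more than the background. The windows of Axl, Mertk, Tyro3, Mst1r, Hgf, Gas6 and Pros1 do not contain these letters. The Met window also had the highest GC content of the 10, 75.7%, against a median of 60.7% for windows of tested genes.

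The 3′ UTRs were searched for seed matches of the microRNA families that the study names in connection with EMT, with 1 mature sequence per seed shown because the seed (bases 2 to 8, in capitals) defines the site.
mmu-miR-200b-3p: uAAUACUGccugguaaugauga
mmu-miR-200a-3p: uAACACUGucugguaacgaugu
mmu-miR-206-3p: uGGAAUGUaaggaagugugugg
mmu-miR-148a-3p: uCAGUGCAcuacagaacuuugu
mmu-miR-34a-5p: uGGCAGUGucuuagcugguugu
The first of these seeds is shared by miR-200c and miR-429, and the next by miR-141. The mature sequences are from RefSeq, and the 3′ UTRs are those of the longest coding transcripts of GENCODE M21 on GRCm38. The 7-base matches searched were CACTGCC for miR-34a, TGCACTG for miR-148a, ACATTCC for miR-206, CAGTGTT for miR-200a and CAGTATT for miR-200b. In the same order, they were present in 17.5%, 15.2%, 11.2%, 21% and 15.8% of the 11984 tested genes with a 3′ UTR.

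The Met 3′ UTR, at 2157 bases the longest of the 8, held matches for the miR-200b, miR-206, miR-148a and miR-34a seeds. They are shown because Met is the only gene of the 8 with a miR-200b match, each with its match in capitals on the plus strand of chromosome 6.
Met, miR-200b, chr6:17572834-17572863: taaaggcaactCAGTATTttttaaaggaca
Met, miR-206, chr6:17572349-17572378: ccatcaggcaaACATTCCcttttaaatgct
Met, miR-206, chr6:17572375-17572404: tgcttatatacACATTCCttaggttggaag
Met, miR-148a, chr6:17573269-17573298: cgcagaaatccTGCACTGtgagcatttcag
Met, miR-34a, chr6:17571889-17571918: ccaacagttctCACTGCCtggcctttggaa
Met, miR-34a, chr6:17573864-17573893: tagatatttgtCACTGCCtatacctgcagt

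Not every match in the 8 genes is reported here, so the matches shown give no count per gene. Axl held a match for miR-148a in 1389 bases. Tyro3 held a miR-34a match in 1070 bases, and Pros1 held a miR-206 match in 1153 bases. These matches are shown with the match in capitals, on the minus strand for Axl.
Axl, miR-148a, chr7:25757410-25757439: agcctgtgcgaTGCACTGggaatgcctgct
Tyro3, miR-34a, chr2:119817430-119817459: ctggaactcagCACTGCCcaccacacttgg
Pros1, miR-206, chr16:62928233-62928262: taattatgctcACATTCCtatcaccagctg
No match was found in Gas6 (372 bases), Mertk (1227 bases) or Mst1r (313 bases). These counts are descriptions of letters in annotated sequence, and no binding was measured.

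Genes of the ligand processing list changed strongly. The list holds pro-ligand proteases, their inhibitors and vitamin K cycle genes, and also the RON ligand gene Mst1 and other TAM ligand genes. Of 18 genes on that list, 11 were tested, 8 were lower and 1 was higher, with a median log2 fold change of -2.28 against -0.02 over all tested genes. Of all tested genes 19.3% were lower and 18.3% higher. The list was chosen with earlier results of these data known, so the comparison with these shares is a description. St14 encodes matriptase, a membrane serine protease that cuts pro-HGF and pro-macrophage-stimulating protein. It was at 114, 115 and 67.9 CPM in 393P_vector replicates 1 to 3 and at 0.206, 0.576 and 0.491 CPM in 393P_ZEB1 replicates 1 to 3. Its log2 fold change was -7.85 (SE 0.39, adjusted p = 5.29e-06 from edgeR). Spint1, which encodes HAI-1, an inhibitor of matriptase and HGF activator, was at 42.2, 41.9 and 52.4 CPM in 393P_vector and at 0.748, 1.35 and 1.51 CPM in 393P_ZEB1 replicates 1 to 3, a log2 fold change of -5.24. A protease and its inhibitor were thus both at or below 1.51 CPM in every 393P_ZEB1 sample. The 7 epithelial markers fell with them in sum, from between 4713 and 5374 to between 2746 and 3043 CPM, none of them at 0. Most of that sum was keratin transcripts, with Krt8 1.53-fold and Krt18 1.71-fold lower and Krt19 not called. Krt8 and Krt18 lie on chromosome 15, where the median log2 fold change was -0.33. Cdh1 was 17.1-fold, Epcam 92.7-fold, Esrp1 215-fold and Cldn4 337-fold lower. The part of these markers in this result was not tested.

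Other pro-ligand proteases were lower too. Plau, which encodes the plasminogen activator urokinase, fell from 654 ± 56.5 to 55.9 ± 2.92 CPM, a log2 fold change of -3.55. Hgfac, the HGF activator gene, had a log2 fold change of -3.80 and a level of 4.48 ± 0.68 CPM in 393P_vector cells, and Hpn, the hepsin gene, had one of -4.22 from 0.928 ± 0.594 CPM. Plat, the tissue plasminogen activator gene, was the single gene of the list that was higher, by 0.84 on the log2 scale, from 31.9 ± 2.16 to 57.1 ± 4.72 CPM. Spint2, which encodes the related inhibitor HAI-2, fell less than Spint1, by 0.59, and was not past the threshold without 393P_ZEB1 replicate 3 (-0.54, adjusted p = 0.0555 from edgeR). Mst1, the RON ligand gene, was low in both groups, at 0.564 ± 0.229 and 0.115 ± 0.0811 CPM. Its log2 fold change of -2.28 (adjusted p = 0.0131) was not past the threshold without 393P_ZEB1 replicate 2 (adjusted p = 0.0569) or replicate 3 (adjusted p = 0.0503). Lgals3, listed as another TAM ligand gene, was at 183 ± 137 CPM in 393P_vector and 96.5 ± 22.5 CPM in 393P_ZEB1 cells. These levels were above those of Gas6 and Pros1. The groups overlapped, 393P_vector replicate 3 was at 341 CPM, and Lgals3 was not called (-0.92, adjusted p = 0.163 from edgeR).

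The vitamin K cycle supplies the gamma-carboxylation that GAS6 and protein S need to bind membranes. Ggcx, the gamma-glutamyl carboxylase gene, fell from 26.5 ± 3.30 to 17.7 ± 0.522 CPM, a log2 fold change of -0.59 (adjusted p = 0.00976 from edgeR). It lies on chromosome 6, where the median was -0.36. Vkorc1, which encodes the enzyme that recycles vitamin K, was at 8.53, 8.48 and 14.5 CPM in 393P_vector and 14.7, 14.2 and 15.2 CPM in 393P_ZEB1 replicates 1 to 3. Its log2 fold change of 0.48 did not pass the threshold (adjusted p = 0.128), but without 393P_vector replicate 3 it was 0.79 (adjusted p = 0.000199). That fit called 3700 genes higher and 3776 lower, more than the fit to all samples. The increase in the Gas6 and Pros1 transcripts stood beside a lower transcript level of their carboxylase.

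**Figure D4:**
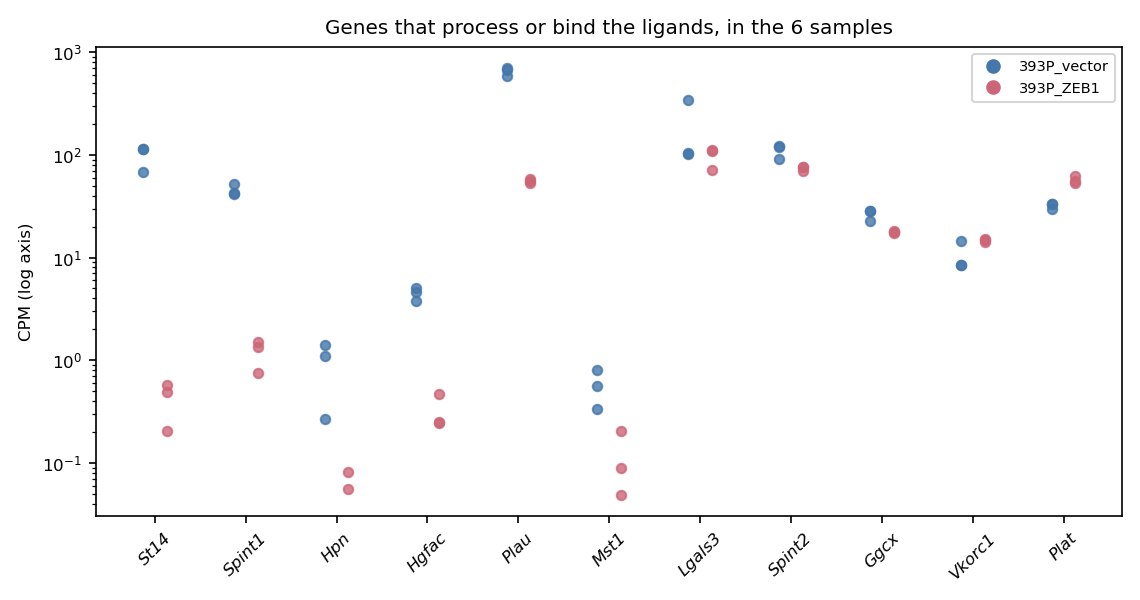
Level in CPM (y axis, log axis) of the 11 tested genes of the ligand processing list in each 393P_vector and 393P_ZEB1 sample. Genes are on the x axis, ordered by log2 fold change, and include the ligand genes Mst1 and Lgals3. The 1 sample with 0 counts of Hpn, in 393P_ZEB1, is not drawn. St14 falls from 67.9 CPM or more to 0.576 CPM or less, and only Plat is called higher.

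Co-receptors and receptor-cleaving enzymes were split: of 13 tested genes 4 were higher and 6 were lower, with a median of 0.04. The shares over all tested genes were 18.3% higher and 19.3% lower. Nrp1 encodes neuropilin-1, a semaphorin and growth factor co-receptor that also associates with MET. It rose from 9.63 ± 1.08 to 106 ± 10.5 CPM, a log2 fold change of 3.47 (SE 0.14, adjusted p = 2.16e-06 from edgeR). Timp3, which encodes an inhibitor of the sheddase ADAM17, rose by 1.29, Itga6, an integrin subunit gene, by 0.66 and the sheddase gene Adam10 by 0.60 on the log2 scale. The call of Adam10 was lost without 393P_vector replicate 2, 393P_ZEB1 replicate 1 or 393P_ZEB1 replicate 2 (adjusted p between 0.0504 and 0.0554). Sema5a, a plexin ligand gene, had a log2 fold change of -1.90, the semaphorin receptor gene Plxnb1 of -1.39, Itgb4, the integrin partner of Itga6, of -1.05 and Sema4d of -0.66. Plxnb2 (-0.64) and Furin (-0.62), the protease gene for maturation of the MET precursor, were the other 2 called lower. Plxnb2 and Sema5a lie on chromosome 15, where the median was -0.33, and the part of the chromosome was not tested. The subunits of the integrin pair thus moved in opposite directions, and Cd44, a hyaluronan receptor gene, was not called (0.24, adjusted p = 0.33).

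Among 20 adaptors and effectors 7 were higher and none was lower by edgeR's test, with a median log2 fold change of 0.18. The 7 of 20 called is close to the 37.6% of all tested genes that were called, with 18.3% higher and 19.3% lower, and is no result about this list. The count lower was also 0 at an unadjusted p below 0.05 and in DESeq2, and 2 with limma's sample weights. Mapk3, which encodes ERK1, rose from 64.7 ± 7.61 to 135 ± 12.4 CPM, a log2 fold change of 1.06 (SE 0.13, adjusted p = 0.000456 from edgeR). The adaptor gene Shc1 rose by 0.79, the phospholipase gene Plcg1 by 0.77 and Pik3ca, the PI3K catalytic subunit gene, by 0.54, and Stat3 and Pik3r1 were also called. The call of Shc1 was lost without 393P_ZEB1 replicate 1 (adjusted p = 0.053), and that of Plcg1 without any 1 of the 393P_ZEB1 samples (adjusted p between 0.0745 and 0.0896). Gab1, the adaptor most closely tied to MET, was at 22.5 ± 0.636 and 23.4 ± 2.05 CPM, a log2 fold change of 0.05 (95% interval -0.22 to 0.32).

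Of 23 tested genes for ubiquitination and endocytic sorting 4 were higher and 5 were lower, with a median of -0.02. That is close to the 18.3% higher and 19.3% lower over all tested genes and is no result about this list. Cbl, the ubiquitin ligase gene known for MET, was at 45.7 ± 3.504 and 44.7 ± 2.67 CPM, with a log2 fold change of -0.03 (95% interval -0.29 to 0.23). Its relative Cblb rose by 1.02 (adjusted p = 0.000163), whereas Cblc fell from 5.43 ± 2.93 to 0.112 ± 0.0206 CPM, a log2 fold change of -5.58 (adjusted p = 8.78e-05). The 3 CBL genes therefore had 3 different outcomes. Of the adaptors that link CBL to endophilin and membranes, Sh3kbp1 rose by 1.28 on the log2 scale and Cd2ap had a log2 fold change of -0.73. Sh3gl1, an endophilin gene, had one of -0.75. Both Cd2ap and Sh3gl1 lie on chromosome 17, where the median was -0.43, and the part of the chromosome was not tested. The call of Sh3gl1 was lost without 393P_vector replicate 1 or any 1 of the 393P_ZEB1 samples (adjusted p between 0.0548 and 0.0735). Eps15, a clathrin-coat adaptor gene, rose by 0.50, and Rab11fip1, a recycling adaptor gene, had a log2 fold change of -0.61. The p-values in this paragraph are from edgeR.

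Single genes of the endosomes and lysosomes, namely Eea1, Stam, Hgs, Lamp1 and Rab11a, are described next. Eea1, the early endosome tether gene, rose by 0.35 (adjusted p = 0.0283 from edgeR), but it passed the threshold in only 1 of the 6 fits that left out a sample, the one without 393P_vector replicate 3; in the other 5 the adjusted p was between 0.0586 and 0.104. Stam, which encodes a part of the ESCRT-0 sorting complex, had a log2 fold change of -0.62, which did not pass without any 1 of the 393P_ZEB1 samples (adjusted p between 0.0796 and 0.0948). Hgs, the partner of Stam, differed by 0.16 (95% interval -0.12 to 0.44) and Lamp1, a lysosomal membrane gene, by -0.02 (95% interval -0.28 to 0.23). Rab11a, the recycling endosome GTPase gene, differed by 0.31 (adjusted p = 0.077) and passed without 393P_vector replicate 3 (0.43, adjusted p = 0.00104). Without that sample 3700 genes were called higher and 3776 lower, more than with all samples.

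Negative regulators of receptor signalling were mixed as well, with 4 of 17 higher, 3 lower and a median of -0.15. These counts are close to the shares over all tested genes, 18.3% higher and 19.3% lower, and are no result about this list. The Sprouty genes, which encode feedback inhibitors of the RAS-MAPK pathway, did not move together. Spry4 rose from 24.8 ± 2.09 to 117 ± 10.4 CPM, a log2 fold change of 2.24 (SE 0.12, adjusted p = 6.84e-06 from edgeR). Spry1 fell from 19.0 ± 0.679 to 3.32 ± 0.637 CPM, a log2 fold change of -2.52, and Spry2 had one of -0.86. Ptpn2, which encodes a phosphatase that acts on MET, rose by 0.63, Dusp6, an ERK phosphatase gene, by 0.43 and Spred2 by 0.33, while the phosphatase gene Ptprj had a log2 fold change of -0.54. These last 4 calls were sensitive to single samples: that of Ptpn2 was lost without any 1 of the 6 samples but 393P_vector replicate 3 (adjusted p between 0.0746 and 0.109) and that of Spred2 in the same 5 fits (between 0.0724 and 0.163). Dusp6 was lost without 393P_vector replicate 1, 393P_vector replicate 2 or 393P_ZEB1 replicate 1 (between 0.054 and 0.0662), and Ptprj without 393P_ZEB1 replicate 2 or 3 (0.0589 and 0.0563). Spry4 and Ptpn2 lie on chromosome 18, where the median log2 fold change of all tested genes was 0.64.

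Of 15 genes known as transcriptional targets of these pathways 4 were higher and 3 were lower, with a median of 0.13. These counts are to be read against 18.3% higher and 19.3% lower over all tested genes. Egr1, an immediate early gene, rose from 17.0 ± 1.62 to 87.6 ± 11.6 CPM, a log2 fold change of 2.36 (SE 0.14, adjusted p = 1.25e-05 from edgeR), and it too lies on chromosome 18. Etv1 rose by 2.66 from 0.464 ± 0.197 CPM, Fos by 0.79 and Ets1 by 0.47 on the log2 scale. Mmp9, the gelatinase gene, had a log2 fold change of -4.07, Hmox1 of -1.09 and Jun, the partner of Fos in AP-1, of -0.87. Immediate early genes were therefore found on both sides.

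Over the 6 pathway lists together, 24 of 99 tested genes were higher and 25 were lower, which is 49 of 99 against 37.6% of all tested genes past the threshold. The lists were chosen with earlier results of these data known, so this comparison is a description and not a test.

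**Figure D5:**
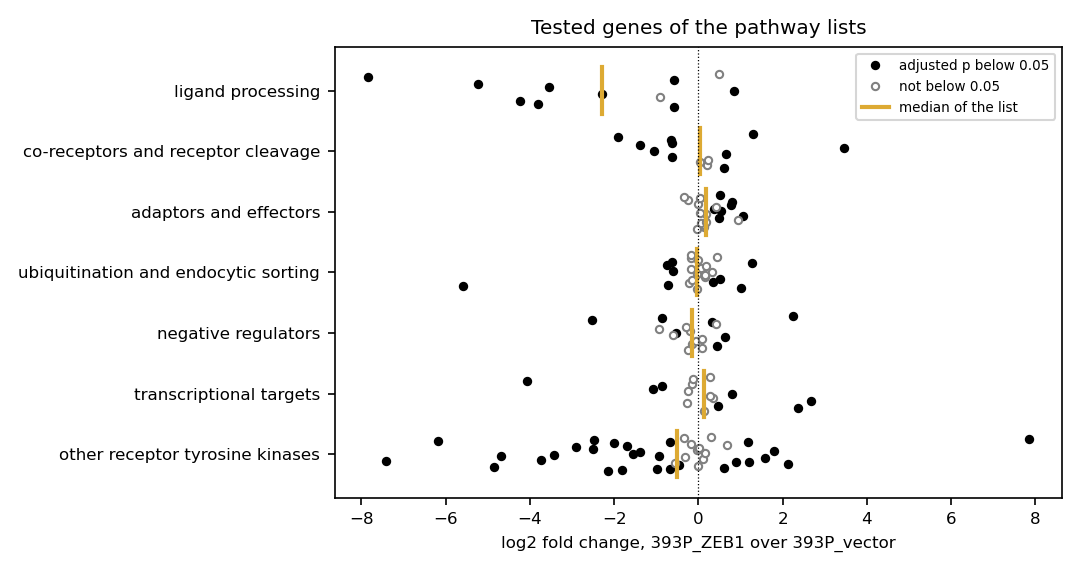
Log2 fold change of 393P_ZEB1 over 393P_vector (x axis) of each tested gene in the 6 pathway lists and in the list of other receptor tyrosine kinases (y axis). Filled points passed the adjusted p threshold of 0.05 in edgeR, open points did not, and vertical bars are list medians. Ligand processing has the lowest median, -2.28, and the median of adaptors and effectors is 0.18.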

How the data were processed

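Total RNA of 6 samples, 3 393P_vector and 3 393P_ZEB1, was grouped by the labels. For every gene the authors deposited a raw read count, an RPKM and the number of exons with more than 10 reads, 1 table per sample, with coordinates on GRCm38. The aligner and counting program are not given in the sources used here. The deposited RPKM served only as an alternative for the ratios, and the other deposited value, the exon number, is quoted as given.

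Counts were analysed in R 4.3.3 with edgeR 4.0.16 (filterByExpr with a minimum count of 10, TMM, robust quasi-likelihood test, no block, Benjamini-Hochberg adjustment over 13892 genes, threshold 0.05). The biological coefficient of variation was 0.184. Single shares and ratios, with 0.5 added to counts in ratios, were compared by two-sided exact permutation tests. Alternatives were DESeq2 1.42.0 (also its size factors within edgeR), limma 3.58.1 with voom and sample weights, other filters, omission of the 10 most counted genes, a replicate block, a test against 1.5-fold, and omission of each sample. Sequence searches and figures used Python 3.11.15 and matplotlib 3.10.9. The fit was tested on simulated data for 13892 genes, with 200 changed genes per simulated set. It recovered 13.3% of genes changed 1.5-fold, 72.7% of those changed 2-fold and 98.7% of those changed 4-fold. The false share was 9.35%, above the threshold of 0.05. In the data 37.6% of tested genes were called, far more than were changed in the simulation, so these recovery rates do not carry over. Changes near 1.5-fold may still be missed.

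The 8 genes and all gene lists were chosen with earlier results of these data known. Named in the text were the 8 genes, Zeb1, in each list up to 4 genes with the largest increase and 4 with the largest decrease past the threshold at a mean of at least 1 CPM, 13 pathway genes whatever their values, and for each tested gene of the 8 the 2 genes most correlated with it. Hpn, Lgals3, Plxnb2, Furin, Cd44, Stat3, Pik3r1, Rab11fip1, Epha2 and Ephb4 were named after their values were seen. Of the listed genes, 1 was found under an older symbol. Protein sequences were not analysed here, and a few single items of the lists and sequence searches are not reported here.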

Additional observations from a re-analysis of the deposited data

How the results depend on the processing

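The calls of Gas6, Pros1 and Met and the directions of all 6 tested genes held in every setting run, except that Met was not past the test against 1.5-fold. With limma's sample weights 3971 genes were higher and 4100 lower, and 2 of the 8 genes were lower, the second being Axl. Against 1.5-fold 1081 were higher and 1118 lower over all genes, 9 higher and 15 lower over the pathway lists, and 0 of the 8 genes were lower. Leaving out single samples gave 1861 to 3700 genes higher and 1784 to 3776 lower. The lowest counts came without 393P_ZEB1 replicate 3 and the highest without 393P_vector replicate 3. The same fits gave 2 to 3 of the 8 genes higher and 1 to 2 lower (2 without 393P_vector replicate 3). They gave 15 to 32 pathway genes higher (the lowest without 393P_ZEB1 replicate 1) and 18 to 32 lower. The cause was not tested. The log2 difference of the Met to Mst1r ratio was -0.052 with 5 added to counts and -0.16 to 1.17 without single samples, and deposited RPKM gave no value because Mst1r was listed at 0 in 1 sample.

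Values near 0 turned sign: the log2 fold change of Gab1 ranged from -0.013 (without 393P_ZEB1 replicate 2) to 0.11 when single samples were left out, that of Cbl from -0.093 to 0.012 (without 393P_vector replicate 1; 0.0023 without 393P_ZEB1 replicate 2) and that of Lamp1 from -0.089 to 0.040 (without 393P_ZEB1 replicate 3; 0.019 without 393P_vector replicate 3), with 0.017 for Lamp1 under limma's sample weights. Of 1031 recomputed values for 74 named genes, 944 stayed on the same side of the threshold in the same direction, 62 fell short of it, 19 came past it and 6 turned sign.

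Samples with the same replicate number did not deviate together (r = 0.195, -0.126 and -0.0276 for numbers 1 to 3), and only number 1 correlated best with its own partner. A fit with the replicate number as a block gave 2180 genes higher and 2256 lower, 2 and 1 of the 8 genes and 22 and 25 pathway genes; Eea1 (adjusted p = 0.0673) and Spred2 (0.119) were no longer called. Depth limits Mst1r and Hgf, which stayed between 1 and 22 counts.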

Other observations

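The genes whose log2 CPM followed each of the 6 tested genes most closely over the 6 samples were found among 10104 genes with a mean of at least 5 CPM. They are descriptions over 6 samples in 2 groups, so any gene with a large change between the groups can rank high. Met was closest to Gas2l3 (Pearson's r = 0.998), a gene for a cytoskeletal linker, and to Cd2ap (r = 0.997), whose product is an adaptor in receptor endocytosis. The levels of Gas2l3 were 138 and 70.7 CPM in 393P_vector and 393P_ZEB1 cells, and those of Cd2ap were 259 and 156 CPM. Gas6 was closest to Cplx2 (r = 1.00), a complexin gene of regulated exocytosis at 0.903 and 14.6 CPM, and to Adcy7, an adenylyl cyclase gene on the same chromosome at 2.44 and 25.4 CPM. Pros1 was closest to Map2k6, a p38 kinase kinase gene at 13.03 and 53.6 CPM, and to B4galt4, a galactosyltransferase gene on the same chromosome at 4.41 and 17.2 CPM.

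The patterns of Axl, Mertk and Tyro3 were led by genes that, like them, did not pass the threshold in edgeR. Axl was closest to Copg, a coat protein gene of Golgi vesicles, and to Rps6ka1, a kinase gene downstream of ERK. Mertk was closest to Mcee and Acox3, and Tyro3 to Azi1 and Ap1b1, the latter a clathrin adaptor gene. For Copg the log2 fold change was -0.35 (adjusted p = 0.126 from edgeR), and for Azi1 it was 0.73 (adjusted p = 0.0836).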
